A study of Mus musculus with 9 samples.

Results

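A set of 10 genes known for holding cells out of division or restraining growth signals was followed across 9 RNA sequencing libraries of sorted mouse skin cells. The genes are Foxo1, Foxo3, Foxo4, Btg1, Tob1, Ccng2, Txnip, Klf9, Gas1 and Lrig1, and they were chosen by name, as 10 of the 23361 genes in the deposited table. The libraries fall into 3 groups of 3 named UVB, Active and Quiescent, where UVB is medium-wave ultraviolet light. All were labelled as melanocyte stem cells, the follicle's reserve for renewing pigment cells, and were taken by flow sorting from 10-week-old mice of a genotype labelled TBPT, which the labels do not spell out. The treatment label is the same for all samples and names depilation by chemical means or UVB, so the labels do not say which group was depilated. Nothing in the labels says whether the 3 libraries of a group came from separate animals, so the p-values measure the spread between these libraries, which may be technical.

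The members act at different points of growth control. FOXO proteins are transcription factors that insulin and growth factor signalling, through the kinase AKT, keeps out of the nucleus; in the nucleus they switch on cell cycle inhibitors, and in mouse tissues they are known for preserving stem cell reserves. BTG1 and TOB1 are antiproliferative adaptors that bring the CCR4-NOT deadenylase to messenger RNAs. Cyclin G2 is an unusual cyclin linked to cell cycle arrest, and TXNIP is an arrestin-like protein that binds thioredoxin and limits glucose uptake. KLF9 is a zinc finger factor induced by glucocorticoids. GAS1 is a membrane protein first found in growth-arrested fibroblasts and a co-receptor for Hedgehog ligands. LRIG1 is a membrane protein that promotes the removal of ERBB and other growth factor receptors and marks a population of epidermal stem cells in mouse skin.

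Several members are themselves known targets of FOXO factors, so the proximal promoters were searched for the FOXO core motif. RefSeq promoter sequence (GRCm38.p6) was matched for 9 of the 10 members, with Foxo4 unmatched, and the 250 bases before the annotated start were read. The motif GTAAACA, on either strand, stood in 3 of the 9, against 1040 of 32851 promoters of the same length (3.17%). The 3 promoters are shown here 5′ to 3′ because they hold the motif, which is in capitals.
Btg1, chr10:96616751-96617000, plus strand: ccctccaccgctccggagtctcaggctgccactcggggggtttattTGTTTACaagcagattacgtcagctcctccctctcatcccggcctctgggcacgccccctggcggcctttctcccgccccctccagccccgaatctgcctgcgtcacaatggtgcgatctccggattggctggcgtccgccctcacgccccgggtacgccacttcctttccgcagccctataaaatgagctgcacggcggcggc
Klf9, chr19:23140976-23141225, plus strand: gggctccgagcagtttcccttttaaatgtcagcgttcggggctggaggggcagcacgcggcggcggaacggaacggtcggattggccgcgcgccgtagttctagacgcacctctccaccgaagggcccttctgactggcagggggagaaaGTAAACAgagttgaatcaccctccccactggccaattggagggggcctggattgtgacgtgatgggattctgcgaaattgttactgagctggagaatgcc
Txnip, chr3:96557707-96557956, plus strand: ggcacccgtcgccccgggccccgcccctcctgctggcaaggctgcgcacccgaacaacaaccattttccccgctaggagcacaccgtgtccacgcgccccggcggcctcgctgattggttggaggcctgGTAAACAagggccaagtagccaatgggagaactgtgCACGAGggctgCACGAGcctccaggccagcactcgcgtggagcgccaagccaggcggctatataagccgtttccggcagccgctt
In Btg1 the match is on the opposite strand and reads TGTTTAC. In Txnip the capitals also mark the paired carbohydrate response element, the site of the glucose-sensing factors MondoA and ChREBP. It was searched on both strands as CACGAG, 5 bases of any kind and CACGAG again. That exact spelling stood in 1 of the 32851 promoters, which was Txnip itself. Other spellings of the element were not searched, so the count does not say how common the element is. The canonical E-box CACGTG, searched on both strands, stood in 0 of the 9 members and in 6.02% of promoters. A match describes these letters and is no evidence of binding.

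Library totals ran from 21045070 to 35131778 fragments assigned to genes. Markers of the labelled cell type were checked before any comparison. The summed level of 10 melanocyte markers was 922 to 1152 CPM (counts scaled to a common library total) in UVB libraries, 7879 to 12740 CPM in Active libraries and 87.3 to 229 CPM in Quiescent libraries. These markers did not all differ alike: 8 were lower in UVB than in Active and 2 did not pass the test. Tyr averaged 28.8 CPM in UVB and 475 CPM in Active, whereas Sox10 averaged 474 CPM in UVB and 591 CPM in Active. The summed level of 9 dermal fibroblast markers was 22170 to 34760 CPM in UVB, 4843 to 6151 CPM in Active and 336200 to 454600 CPM in Quiescent, with no marker of either list at 0 in any group. The Quiescent libraries therefore go against their label in RNA content, with 23.2% to 27.7% of fragments in Col1a1, Col1a2 and Col3a1, against 2.45% to 3.49% in UVB and 0.55% to 0.70% in Active. Endothelial markers (6 genes) summed to 120.4 to 223 CPM in UVB, 17.5 to 21.9 CPM in Active and 298 to 404 CPM in Quiescent. The part of these differences in the results was not tested, and in bulk RNA fewer cells of a type and less RNA per cell cannot be told apart. Xist, the RNA of the silenced X chromosome in females, had 23353 to 30356 fragments in UVB libraries, 5 to 12 in Active and 4 to 12 in Quiescent, and 4 Y-linked genes together had 0 to 2 fragments in UVB, 4106 to 5253 in Active and 4155 to 5591 in Quiescent. By these genes the UVB libraries read as female and the other 6 as male, so sex and the UVB condition cannot be told apart in either UVB comparison. The 12 proliferation genes summed to 995 to 2743 CPM in UVB, 1831 to 2595 CPM in Active and 135 to 149 CPM in Quiescent, and all 12 were higher both in Active and in UVB than in Quiescent.

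All 10 members had enough fragments to be tested. Compared per length within a group, Txnip was the most abundant message in all 3 groups, at 129 ± 85 FPKM in UVB, 101 ± 29 FPKM in Active and 303 ± 52 FPKM in Quiescent (fragments per kilobase of transcript and scaled library total, as deposited, SD, n = 3 each). In Quiescent libraries Gas1 (156 ± 67 FPKM) and Btg1 (75.9 ± 13.8 FPKM) followed, then Klf9, Ccng2, Lrig1, Tob1, Foxo1, Foxo4 and Foxo3, which was lowest at 7.83 ± 1.02 FPKM. The library ranges of Quiescent neighbours overlapped from Gas1 through Btg1 and Klf9 to Ccng2, and between Lrig1 and Tob1, whereas Txnip, Foxo1, Foxo4 and Foxo3 each stood clear of their neighbours. In Active libraries the order after Txnip was Btg1, Tob1, Foxo4, Gas1, Ccng2, Klf9, Foxo1, Foxo3 and Lrig1, and every pair of neighbours from Btg1 to Foxo3 overlapped. Lrig1 was sixth of the 10 in Quiescent and last in Active, at 4.62 ± 0.41 FPKM. In UVB libraries the order was Txnip, Gas1, Btg1, Tob1, Klf9, Ccng2, Foxo1, Foxo4, Lrig1 and Foxo3, and every pair of neighbours overlapped.

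**Figure D1:**
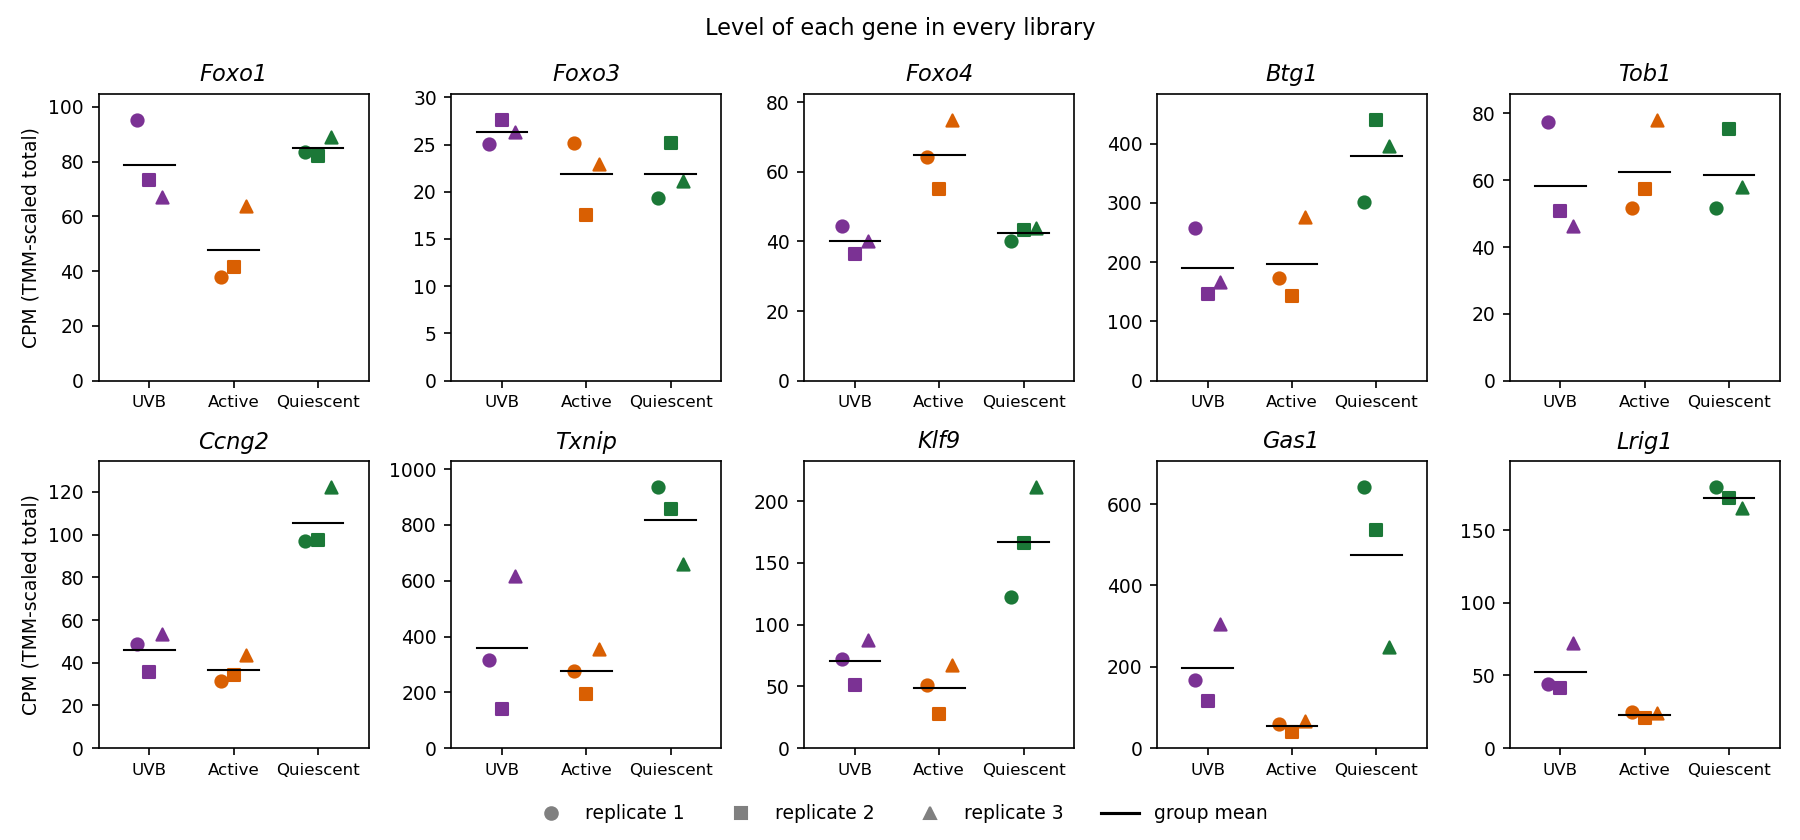
Level of each of the 10 genes (CPM, linear axis from 0, TMM-scaled) in every library, with UVB, Active and Quiescent from left to right; points are libraries, with a shape for each replicate number, and lines are group means (n = 3). Lrig1, Ccng2 and Klf9 stand higher in all Quiescent libraries than in any other library, whereas Foxo3 and Tob1 overlap between the groups.

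The first comparison sets the Active libraries against the Quiescent ones, which also differ in the melanocyte and fibroblast markers given above. Of the 10 genes, 7 were lower in Active: Lrig1, Gas1, Klf9, Txnip, Ccng2, Btg1 and Foxo1. Foxo4 was higher, and Foxo3 and Tob1 did not pass the test (edgeR's quasi-likelihood test, Benjamini-Hochberg adjusted p under 0.05 over 15078 genes). Of all genes tested, 29.2% were lower and 29.1% higher, so that 58.3% passed in either direction. The libraries of the 2 groups did not overlap for the same 8 members, 7 lower and 1 higher in Active, against 32.7% and 33.5% of all genes (66.2% in all). The members' median log2 fold change was -1.24, and that of all genes was 0.0071.

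The second comparison sets UVB against Quiescent. In UVB 5 members were lower, namely Lrig1, Gas1, Klf9, Ccng2 and Btg1, and 0 were higher, where 23.2% of all genes were lower and 25.8% higher (49% in all). At an unadjusted p under 0.05 in edgeR, still 0 members were higher, and DESeq2 also called 0 members higher. The number lower was 2 without UVB replicate 2 and 3 without Quiescent replicate 2, where 17.8% and 21.2% of all genes were lower. The median of the members was -1.10, and that of all genes 0.02, on the log2 scale. Libraries did not overlap for Lrig1, Klf9, Ccng2, Btg1 and Txnip, all lower in UVB, and 0 members were separated upward, where 27.4% of all genes were separated downward and 30.2% upward.

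The third comparison sets UVB against Active and uses the Quiescent libraries for the shared estimate of spread, the filter on low counts and the scaling factors. In UVB 3 members were higher, Lrig1, Gas1 and Foxo1, and 1, Foxo4, was lower, where 14.8% of all genes were higher and 9.19% lower (24% in all). Fitted on the 6 libraries compared, the counts were also 3 and 1. The number higher was 1 without Active replicate 1 or 2, and 2 with the replicate number as a block or without UVB replicate 1, UVB replicate 2 or Quiescent replicate 1. Of all genes, 1215 of 15319 were higher without Active replicate 1 and 999 of 15377 without Active replicate 2, in place of 2226 of 15078. With the block 1826 of 15078 were higher. Without UVB replicate 1, UVB replicate 2 or Quiescent replicate 1 the counts were 1395 of 15289, 2047 of 15384 and 2160 of 15327. The median of the members was 0.36, and that of all genes 0.01. The libraries of the 2 groups were separated for these 4 genes, against 25% of all genes higher and 21.7% lower (46.7% in all). The first 2 comparisons share their Quiescent libraries, and the third shares libraries with each of them, so the members' values are given side by side and are not independent across comparisons.

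**Figure D2:**
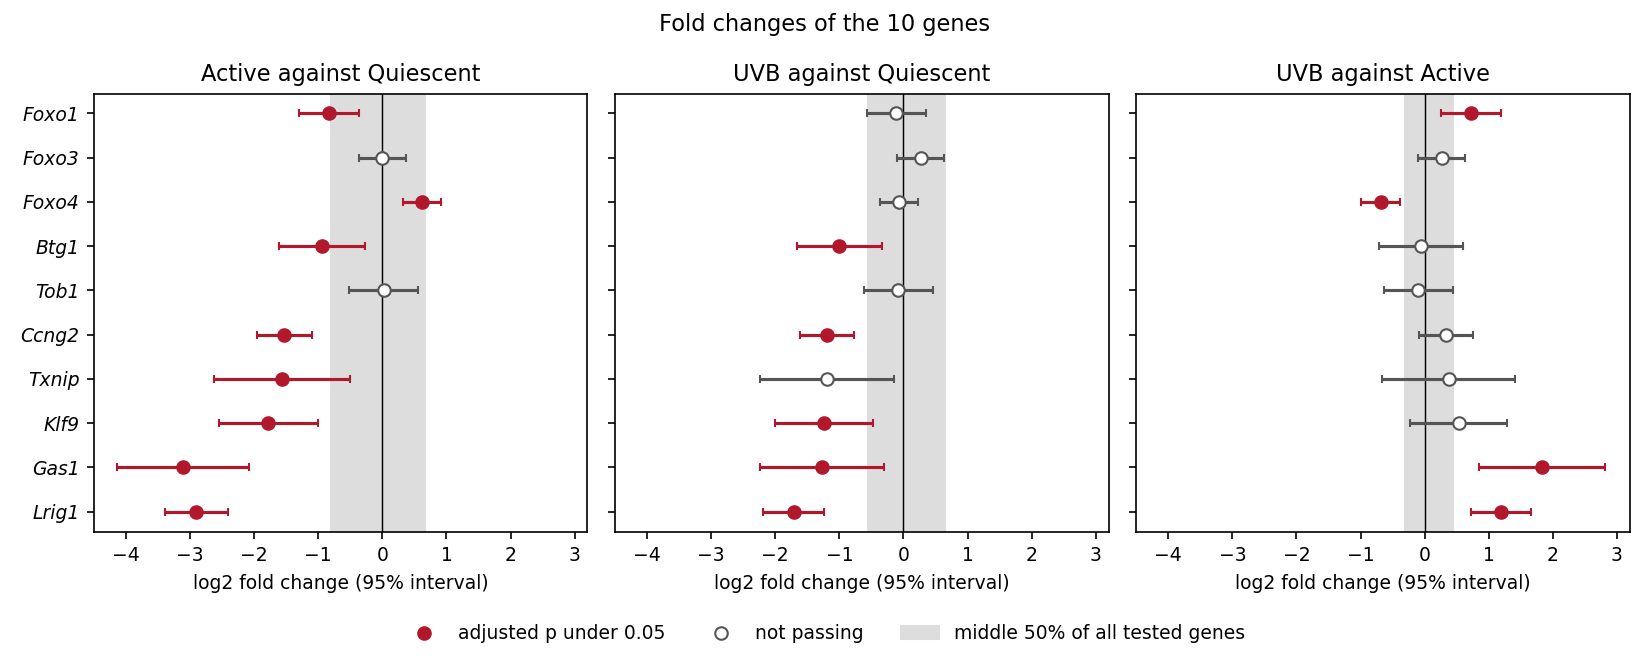
Log2 fold change of each gene with its 95% confidence interval in the 3 comparisons; filled points passed the adjusted p threshold of 0.05, and the grey band spans the middle 50% of all tested genes. Lrig1 and Gas1 lie farthest below 0 in Active against Quiescent, at -2.91 and -3.11, and above 0 in UVB against Active, at 1.19 and 1.83.

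The scaling between libraries bears on every comparison with Quiescent. TMM factors, which correct for RNA composition, were 1.16 to 1.23 in UVB and Active libraries and 0.660 to 0.748 in Quiescent libraries. With library totals alone, the median over all genes moved, on the log2 scale, to 0.76 in Active and to 0.74 in UVB, each against Quiescent. Then 79.7% of calls in Active against Quiescent were higher, in place of 50%, and 87.5% of those in UVB against Quiescent, in place of 52.7%. Of the 15078 genes, 8651 were higher and 2206 lower in Active, and 8746 higher and 1246 lower in UVB. The members shifted with all genes, and 4 were lower and 3 higher in Active, and 2 lower and 4 higher in UVB. The genes that passed as higher were Foxo3, Foxo4 and Tob1 in Active, and these with Foxo1 in UVB. Relative to the median of all genes, Lrig1 stood at -2.91 in Active under all 4 scalings and Foxo1 at -0.84. A gene whose negative change is smaller than the shift of the median lies above 0 with library totals alone. TMM left that median at 0.0071 and 0.02, so the changes given here are nearly relative to it.

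**Figure D3:**
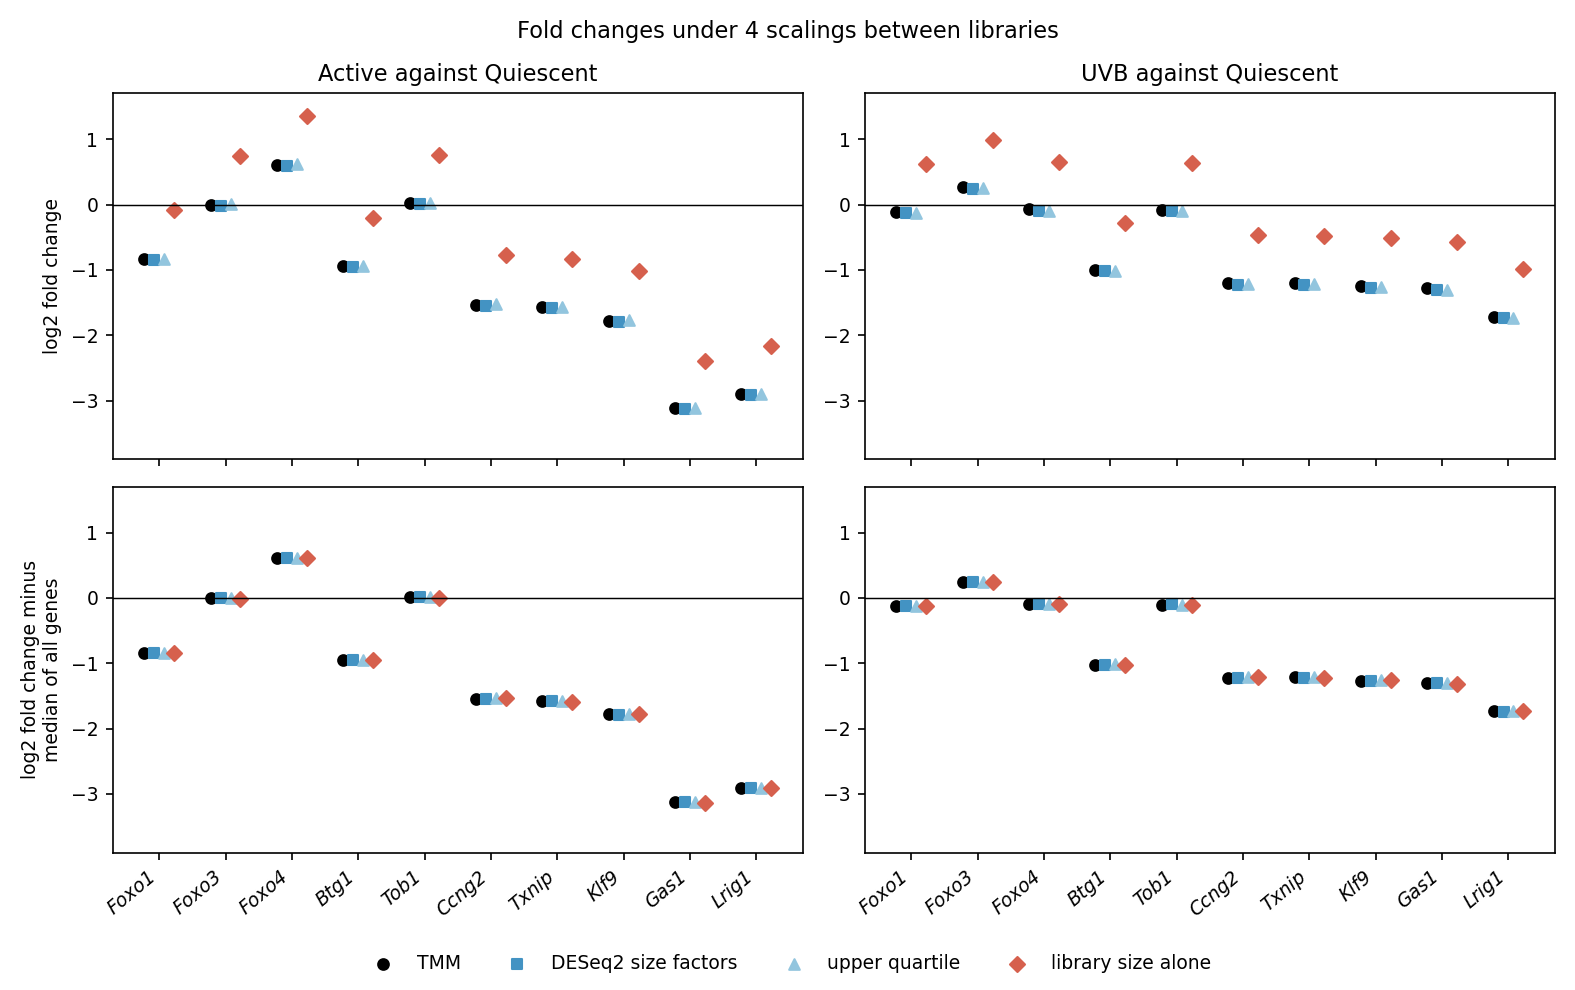
Log2 fold change of each gene under 4 scalings of the libraries, before and after subtracting the median of all genes, for the comparisons with Quiescent. Library totals alone lift every gene by about the shift of the median, 0.76 in Active and 0.74 in UVB, and after subtraction the 4 scalings fall together.

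The 3 FOXO genes each behaved differently. Foxo1 (chr3:52268336-52353221, plus strand, GENCODE M21 on GRCm38) had 95.3, 73.4 and 67.1 CPM in UVB libraries, 37.9, 41.3 and 63.8 CPM in Active libraries and 83.5, 81.9 and 88.9 CPM in Quiescent libraries. All 3 Active libraries lay below every other library, while UVB and Quiescent overlapped. Foxo1 was 1.78-fold lower in Active than in Quiescent (log2 fold change -0.83 ± 0.21 SE, adjusted p = 0.00766) and 1.65-fold higher in UVB than in Active (0.72 ± 0.21, adjusted p = 0.0355). UVB against Quiescent gave -0.11, with a 95% interval of -0.58 to 0.36, and did not pass. An opposite-strand gene, Gm20402, shares 674 bases of exon with Foxo1. With library totals alone the call in Active was lost (-0.09, adjusted p = 0.696). The call in UVB against Active was lost without any 1 of UVB replicates 1 and 2, Active replicates 1 and 2 and Quiescent replicate 1, with adjusted p = 0.12, 0.0557, 0.116, 0.129 and 0.0513 in that order.

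Foxo4 (chrX:101254528-101260873, plus strand) was the one member higher in Active. It had 44.4, 36.3 and 39.97 CPM in UVB libraries, 64.3, 55.1 and 74.97 CPM in Active libraries and 39.997, 43.1 and 43.9 CPM in Quiescent libraries. Every Active library lay above every other library, and UVB and Quiescent overlapped. Foxo4 was 1.53-fold higher in Active than in Quiescent (0.61 ± 0.13, adjusted p = 0.00357) and 1.61-fold lower in UVB than in Active (-0.69 ± 0.13, adjusted p = 0.00823), and UVB against Quiescent gave -0.07 (interval -0.37 to 0.22). Foxo4 is X-linked, and in its comparisons with UVB sex and the UVB condition cannot be told apart. Active and Quiescent libraries are alike in Xist and Y-linked fragments.

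Foxo3 (chr10:42181841-42276755, minus strand) had 25.02, 27.6 and 26.3 CPM in UVB libraries, 25.1, 17.6 and 22.9 CPM in Active libraries and 19.3, 25.2 and 21.1 CPM in Quiescent libraries. The UVB libraries stood at the top of the range, and each of the other groups reached them with 1 library, Active replicate 1 and Quiescent replicate 2. No comparison passed: Active against Quiescent gave -0.00, with an interval of -0.37 to 0.37, UVB against Quiescent 0.27 (-0.10 to 0.63) and UVB against Active 0.27 (-0.10 to 0.63). With library totals alone Foxo3 passed as higher than in Quiescent in Active (0.75, adjusted p = 0.00419) and in UVB (0.99, adjusted p = 0.00102).

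With Foxo1 lower and Foxo4 higher, the make-up of the summed FOXO message differed in Active libraries. Foxo4 made up 33.8% to 37.7% of the summed FPKM of the 3 genes in UVB, 55.3% to 56.9% in Active and 37.1% to 37.7% in Quiescent. Foxo1 made up 34.99% to 42.3% in UVB, 18.6% to 26.04% in Active and 39.0% to 43.0% in Quiescent. The log2 ratio of Foxo4 to Foxo1, which no scaling between libraries can alter, averaged -0.10 ± 0.19 in UVB, 1.32 ± 0.27 in Active and -0.15 ± 0.07 in Quiescent (SD, n = 3 each). The Active libraries did not overlap the others. The two-sided exact permutation test gave p = 0.1 for Active against Quiescent and for UVB against Active, the smallest p that 3 against 3 libraries allow, and p = 0.8 for UVB against Quiescent. The ratio was chosen with the differences of both genes known, so these values describe them and add no independent support.

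**Figure D4:**
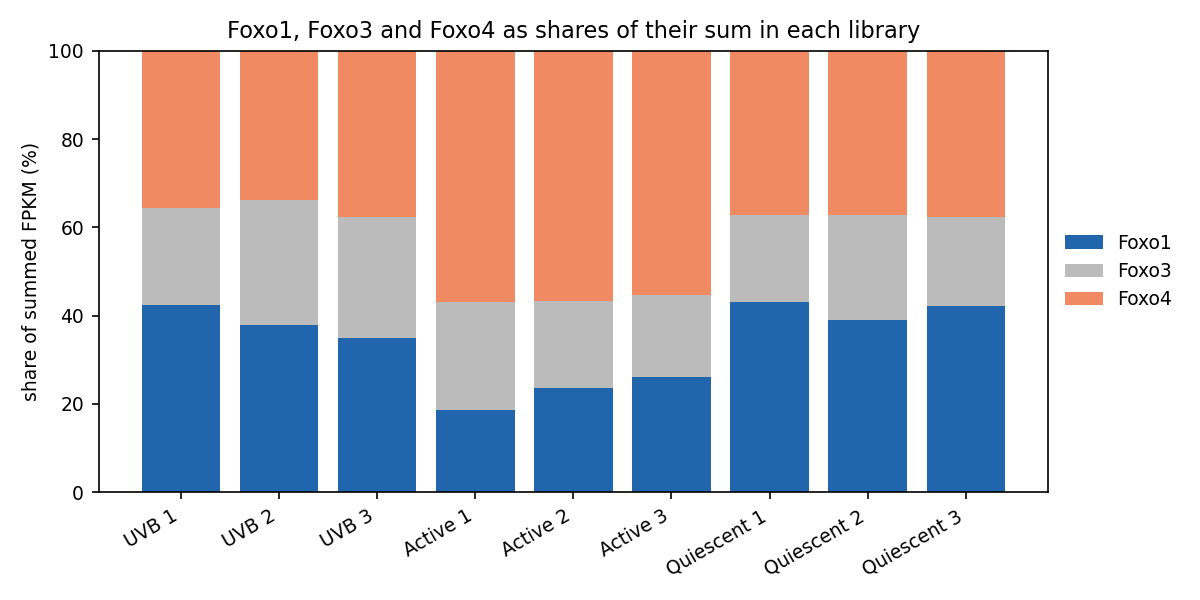
Share of Foxo1, Foxo3 and Foxo4 in the summed FPKM of the 3 genes, as stacked bars from 0 to 100%, 1 bar per library, with UVB, Active and Quiescent from left to right. Foxo4 takes over 55% in every Active library and under 38% in every other library.

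Btg1 (chr10:96617006-96622809, plus strand) had 257, 146 and 166 CPM in UVB libraries, 173, 144 and 276 CPM in Active libraries and 302, 441 and 396 CPM in Quiescent libraries. Every Quiescent library lay above every other, and the other two groups overlapped widely. Btg1 was 1.92-fold lower in Active than in Quiescent (-0.94 ± 0.29, adjusted p = 0.0217) and 2-fold lower in UVB than in Quiescent (-0.9997 ± 0.29, adjusted p = 0.0205), and UVB against Active gave -0.06 (interval -0.72 to 0.60). The annotation also names the pseudogenes Btg1-ps1 and Btg1-ps2, which are not rows of the table, so fragments could have been shared with them. The call in Active was lost without Active replicate 1 (adjusted p = 0.0744), Active replicate 2 (0.079) or Quiescent replicate 2 (0.0655), and that in UVB without UVB replicate 2 (0.0718), UVB replicate 3 (0.0576) or Quiescent replicate 2 (0.0572). Both were lost with library totals alone, with adjusted p = 0.538 and 0.402.

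Tob1 (chr11:94211454-94215495, plus strand) had 77.4, 50.9 and 46.4 CPM in UVB libraries, 51.8, 57.3 and 78.2 CPM in Active libraries and 51.6, 75.3 and 58.0 CPM in Quiescent libraries. All groups overlapped and no comparison passed, with intervals of -0.52 to 0.56 for Active against Quiescent, -0.62 to 0.46 for UVB against Quiescent and -0.64 to 0.44 for UVB against Active. With library totals alone Tob1 passed as higher in Active than in Quiescent (0.76, adjusted p = 0.0188), which is the shift of the median of all genes under that scaling.

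Ccng2 (chr5:93267257-93276231, plus strand), which encodes cyclin G2, had 48.7, 35.7 and 53.6 CPM in UVB libraries, 31.4, 34.5 and 43.6 CPM in Active libraries and 96.8, 97.6 and 122 CPM in Quiescent libraries. The Quiescent libraries stood clear of all others. Ccng2 was 2.89-fold lower in Active (-1.53 ± 0.19, adjusted p = 0.000159) and 2.29-fold lower in UVB (-1.20 ± 0.19, adjusted p = 0.00093) than in Quiescent, while UVB against Active gave 0.34 (interval -0.08 to 0.76) and did not pass.

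Txnip (chr3:96557957-96561883, plus strand) had 316, 140 and 616 CPM in UVB libraries, 277, 195 and 354 CPM in Active libraries and 936, 855 and 660 CPM in Quiescent libraries. The lowest Quiescent library lay just above the highest UVB library, and UVB replicate 3 stood far above the other two of its group. Txnip was 2.97-fold lower in Active than in Quiescent (-1.57 ± 0.47, adjusted p = 0.018), a call lost without Active replicate 1 (adjusted p = 0.0523), without Active replicate 2 (0.0674) and with library totals alone (0.133). It was 2.29-fold lower in UVB than in Quiescent and did not pass (-1.19 ± 0.46, adjusted p = 0.0596). Without UVB replicate 3 the difference was 3.58-fold and passed (-1.84, adjusted p = 0.00566). It also passed with DESeq2's size factors in edgeR (0.0487), in DESeq2 (0.0114) and in limma on log2(FPKM + 1) and log2(FPKM + 0.1) (0.0265 and 0.0256). A gene on the opposite strand, Gm15441, overlaps 606 bases of Txnip exons and had 8 to 30 fragments per library.

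Klf9 (chr19:23141226-23168134, plus strand) had 72.3, 50.9 and 87.9 CPM in UVB libraries, 51.1, 27.9 and 66.96 CPM in Active libraries and 123, 166 and 211 CPM in Quiescent libraries. Every Quiescent library lay above every other library. Klf9 was 3.43-fold lower in Active (-1.78 ± 0.34, adjusted p = 0.00202) and 2.37-fold lower in UVB (-1.24 ± 0.34, adjusted p = 0.0145) than in Quiescent. UVB against Active gave 0.53 (interval -0.23 to 1.29) and did not pass. The call in UVB was lost without UVB replicate 2 (adjusted p = 0.0529) and with library totals alone (0.182).

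Gas1 (chr13:60174405-60177365, minus strand) had the largest ratio of highest to lowest library among the members. It had 168, 116 and 304 CPM in UVB libraries, 59.2, 39.8 and 66.1 CPM in Active libraries and 642, 535 and 249 CPM in Quiescent libraries. The Active libraries lay below all others, while UVB replicate 3 exceeded Quiescent replicate 3. Gas1 was 8.64-fold lower in Active than in Quiescent (-3.11 ± 0.45, adjusted p = 0.000423) and 3.56-fold higher in UVB than in Active (1.83 ± 0.43, adjusted p = 0.0185). It was 2.42-fold lower in UVB than in Quiescent (-1.28 ± 0.43, adjusted p = 0.0346). That last call was lost without any 1 of UVB replicate 1 (adjusted p = 0.105), UVB replicate 2 (0.102), Active replicate 1 (0.0508), Quiescent replicate 1 (0.112) and Quiescent replicate 2 (0.0768), in a fit of the 6 libraries compared (0.0546) and with library totals alone (0.267). UVB against Active lost its call without Active replicate 1 (adjusted p = 0.059) or Active replicate 2 (0.0776). An opposite-strand gene, Gm48488, shares 589 bases of exon with Gas1. Gas1 followed the order of the fibroblast markers across the groups, as other members did, and the part of those cells in its values was not tested.

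Lrig1 (chr6:94604529-94700158, minus strand) was the member whose groups were all separated. It had 43.9, 41.1 and 72.6 CPM in UVB libraries, 24.6, 20.5 and 23.9 CPM in Active libraries and 179.5, 172 and 165 CPM in Quiescent libraries. No library of 1 group reached the range of another. Lrig1 was 7.49-fold lower in Active than in Quiescent (-2.91 ± 0.22, adjusted p = 1.37e-05), 3.28-fold lower in UVB than in Quiescent (-1.71 ± 0.21, adjusted p = 0.000253) and 2.28-fold higher in UVB than in Active (1.19 ± 0.21, adjusted p = 0.00571). These calls held under every alternative tried. Slc25a26, on the opposite strand, shares 144 bases of exon with Lrig1 and had 90 to 222 fragments per library, and no source used here states the strand setting. The group means of Lrig1, Gas1, Ccng2, Txnip, Klf9 and Foxo1 all had the order of the fibroblast markers, lowest in Active and highest in Quiescent. Of these, Ccng2, Txnip and Klf9 did not pass between UVB and Active, nor did Foxo1 and Txnip between UVB and Quiescent. The share of all genes with this order was not counted.

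The wider pathways were then read from lists of related genes, as counts beside the shares of all genes given above. Some lists share genes. Cdkn1b, Rbl2 and Gadd45a stand both among FOXO targets and among other growth restraint genes. Klf2 and Klf15 stand among FOXO targets and other KLF genes, and Ret in the lists around Lrig1 and Gas1. A shared gene is counted in each of its lists, so the lists are not independent. Among 21 upstream regulators of FOXO, 7 were higher and 10 lower in Active, and 8 higher and 8 lower in UVB, than in Quiescent, and 5 were higher and 1 lower in UVB than in Active. Their medians were -0.31, -0.03 and 0.07 on the log2 scale in that order of comparisons. The list split within the regulatory subunits of phosphoinositide 3-kinase, the enzyme upstream of AKT. Pik3r3 averaged 33.95 ± 4.88 CPM in UVB, 102 ± 25 CPM in Active and 12.9 ± 3.0 CPM in Quiescent, and passed as higher in Active than in Quiescent (2.99, adjusted p = 1.62e-05). Pik3r1 averaged 159.7 ± 10.0 CPM in UVB, 102 ± 15 CPM in Active and 272 ± 25 CPM in Quiescent, and was lower in Active (-1.41, adjusted p = 3.69e-05). With library totals alone 8 regulators were higher and 3 lower in Active, and 11 higher and 1 lower in UVB. Without UVB replicate 1 the calls in UVB against Quiescent were fewer by over 1.5 times in each direction, and the number higher fell that way also without UVB replicate 2, the number lower without Quiescent replicate 3, and each count was 5 at its lowest. In UVB against Active the number higher was 3 at its lowest, with changes of that size without Active replicate 1 or 2, and the number lower was 2 without UVB replicate 2.

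Among 26 tested target genes of FOXO factors, 3 were higher and 11 lower in Active, and 0 higher and 12 lower in UVB, than in Quiescent (7 and 4 in Active, and 4 and 4 in UVB, with library totals alone); DESeq2 also called 0 higher in UVB, and edgeR called 1 without UVB replicate 2 or Quiescent replicate 2. In UVB against Active 4 were higher and 0 lower, with DESeq2 calling 1 lower. The median log2 fold change was -0.72 in Active and -0.64 in UVB, each against Quiescent. Insr, the insulin receptor, was 32.1 ± 2.0 CPM in Active and 67.02 ± 7.21 CPM in Quiescent (-1.06, adjusted p = 0.000183), and Gabarapl1, an autophagy protein, 54.0 ± 20.2 CPM in UVB and 173 ± 10 CPM in Quiescent (-1.68, adjusted p = 0.000677). Cat, the peroxide-degrading enzyme catalase, was higher, at 121 ± 12 CPM in Active and 85.0 ± 4.6 CPM in Quiescent (0.51, adjusted p = 0.00487). The number lower in UVB ranged from 7 to 14 when single libraries were left out, with changes of over 1.5 times without UVB replicate 1 or Quiescent replicate 2. In UVB against Active the number higher ranged from 2 to 5, with changes of that size without UVB replicate 3 or Active replicate 1 or 2, and the number lower reached 1 or 2 without UVB replicate 3 or Quiescent replicate 2.

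Among 19 other growth restraint genes, 1 was higher and 12 lower in Active, and 1 higher and 10 lower in UVB, than in Quiescent (5 and 5 in Active, and 5 and 2 in UVB, with library totals alone). The gene higher in both was Cdkn1a, the inhibitor p21, at 219 ± 43 CPM in UVB, 215 ± 19 CPM in Active and 107 ± 61 CPM in Quiescent (1.003, adjusted p = 0.044 in Active; 1.03, adjusted p = 0.0471 in UVB). The count of 1 in Active became 0 or 2 without any 1 library other than UVB replicate 3, and that in UVB became 0 without UVB replicate 1, any 1 Active library or Quiescent replicate 1 or 2. Gadd45g, a stress-induced growth arrest protein, averaged 40.3 ± 16.0 CPM in UVB, 27.8 ± 15.4 CPM in Active and 449 ± 39 CPM in Quiescent (-4.02, adjusted p = 9.53e-05 in Active). Cdkn1b, the inhibitor p27, averaged 65.3 ± 5.9 CPM in UVB, 67.4 ± 7.9 CPM in Active and 111 ± 7 CPM in Quiescent (-0.73, adjusted p = 0.000692 in Active; -0.77, adjusted p = 0.00077 in UVB), changes of about the size of that shift. The pocket protein gene Rbl2 was lower in Active (-0.84, adjusted p = 0.000134). Without UVB replicate 2 the number lower in UVB was 6.

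Among 14 tested relatives and partners of BTG1 and TOB1, mostly subunits of CCR4-NOT, 6 were higher and 2 lower in Active, and 7 higher and 2 lower in UVB, than in Quiescent (12 and 0 in each with library totals alone). Cnot1, the scaffold of the complex, averaged 199 ± 24 CPM in UVB, 190.5 ± 7.3 CPM in Active and 113 ± 10 CPM in Quiescent (0.76, adjusted p = 0.000571 in Active). Btg2, the closest relative of Btg1, was one of the 2 lower genes, at 147 ± 58 CPM in UVB, 109 ± 76 CPM in Active and 419 ± 190 CPM in Quiescent (-1.94, adjusted p = 0.0132 in Active; -1.51, adjusted p = 0.0424 in UVB), and Cnot8, a deadenylase subunit, was the other. In UVB against Active 0 of the 14 passed in edgeR's test and 0 in DESeq2. The number lower in UVB fell to 1 or 0 without any 1 of 6 libraries, namely the 3 of UVB, Active replicate 1 and Quiescent replicates 2 and 3.

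The list around Txnip holds arrestin relatives and glucose-sensing factors, with 12 tested. In each comparison with Quiescent 1 was higher and 5 were lower (7 and 3 in Active, and 6 and 1 in UVB, with library totals alone). Mlxip, which encodes MondoA, averaged 42.5 ± 8.6 CPM in UVB, 26.3 ± 4.5 CPM in Active and 88.3 ± 11 CPM in Quiescent (-1.75, adjusted p = 7.27e-05 in Active; -1.05, adjusted p = 0.00164 in UVB), and was higher in UVB than in Active (0.70, adjusted p = 0.0265), the 1 such call of the list, which was lost without UVB replicate 1 or 3 or Active replicate 2 or 3. Arrdc3, an arrestin relative of Txnip, averaged 72.2 ± 17.8 CPM in UVB, 78.7 ± 39.3 CPM in Active and 273 ± 51 CPM in Quiescent and was lower in UVB than in Quiescent (-1.92, adjusted p = 0.00185). The number lower in UVB was 3 at its lowest when a library was left out, a change of over 1.5 times without UVB replicate 1 or Quiescent replicate 1. The count of 1 higher became 2 without Quiescent replicate 1 or 3 in Active and without UVB replicate 3 or Quiescent replicate 1 in UVB.

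Of 15 glucocorticoid response genes, the setting in which Klf9 is induced, 1 was higher and 7 lower in Active, and 1 higher and 9 lower in UVB, than in Quiescent (3 and 5 in Active, and 2 and 1 in UVB, with library totals alone). The receptor gene Nr3c1 averaged 165 ± 15 CPM in UVB, 126 ± 6 CPM in Active and 239.7 ± 26.9 CPM in Quiescent and was lower in Active (-0.93, adjusted p = 0.000183) and in UVB (-0.54, adjusted p = 0.00507), a change smaller than the shift of the median with library totals alone. The number lower in UVB was 5 without 1 library at its lowest, with a change of over 1.5 times without Quiescent replicate 3. The count higher was above 1 without UVB replicate 2 in both comparisons. Of 13 other KLF genes tested, 2 were higher and 3 lower in Active, and 4 higher and 3 lower in UVB, than in Quiescent (6 and 2 in Active, and 6 and 0 in UVB, with library totals alone). These small KLF counts moved by over 1.5 times without Active replicate 3 in Active (5 lower), and in UVB without UVB replicate 2 (2 higher) or, for the lower genes, without UVB replicate 1 or 2, Active replicate 1 or 3 or Quiescent replicate 2 (1 to 5). Klf4, a barrier and differentiation factor of skin, averaged 319 ± 75 CPM in UVB, 139.9 ± 69.0 CPM in Active and 581 ± 65 CPM in Quiescent (-2.05, adjusted p = 0.000702 in Active). The 10 immediate early and heat shock genes, which respond to handling of tissue, summed to 3020 to 6754 CPM in UVB, 2434 to 7609 CPM in Active and 8533 to 15650 CPM in Quiescent, and 4 were lower in each comparison with Quiescent (2 with library totals alone). In Active the last count was 2 without Active replicate 1 or 2 or Quiescent replicate 2 and 7 without Active replicate 3, and in UVB it was 1 or 2 without any 1 UVB library or Quiescent replicate 2. That list moves with Btg2, Klf4, Klf9 and Txnip in the order of Quiescent against the rest, and its part in their values was not tested.

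The list around Lrig1 joins its relatives Lrig2 and Lrig3, the ERBB receptors, Met and Ret, and the ubiquitin ligases Cbl and Cblb. Of 9 tested genes, 4 were higher and 4 lower in Active, and 4 higher and 3 lower in UVB, than in Quiescent (5 and 3 in Active, and 5 and 1 in UVB, with library totals alone), and 3 were higher and 1 lower in UVB than in Active. Erbb3, the neuregulin receptor of the pigment and Schwann lineages, averaged 492 ± 149.6 CPM in UVB, 526 ± 56 CPM in Active and 4.004 ± 2.397 CPM in Quiescent (7.01, adjusted p = 9.62e-06 in Active). Egfr averaged 45.2 ± 28.3 CPM in UVB, 8.84 ± 3.75 CPM in Active and 177 ± 83 CPM in Quiescent and was higher in UVB than in Active (2.35, adjusted p = 0.0162). Met, the receptor of hepatocyte growth factor, averaged 11.3 ± 3.6 CPM in UVB, 66.4 ± 20.6 CPM in Active and 5.93 ± 1.02 CPM in Quiescent and was lower in UVB than in Active (-2.55, adjusted p = 0.00143). The number higher in UVB than in Active was 1 without Active replicate 2.

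The Gas1 list joins Hedgehog pathway genes, GDNF receptors and other growth arrest-specific genes. Of 17, 4 were higher and 7 lower in Active, and 7 higher and 5 lower in UVB, than in Quiescent, and 5 were higher and 0 lower in UVB than in Active, with DESeq2 calling 9 higher and 0 lower. With library totals alone 7 were higher and 5 lower in Active, and 10 higher and 3 lower in UVB, than in Quiescent. Cdon, a Hedgehog co-receptor like Gas1, averaged 43.5 ± 16.7 CPM in UVB, 6.20 ± 0.16 CPM in Active and 122 ± 11 CPM in Quiescent, the same order as Gas1 (-4.30, adjusted p = 6.09e-06 in Active; 2.81, adjusted p = 0.000497 for UVB against Active). Gas6, a ligand of TAM receptors, averaged 202 ± 125 CPM in UVB, 31.4 ± 5.9 CPM in Active and 2161 ± 270 CPM in Quiescent (-6.10, adjusted p = 1.66e-05 in Active). Gas7, known from neurite outgrowth, averaged 648 ± 103 CPM in UVB, 646 ± 102 CPM in Active and 149 ± 24 CPM in Quiescent (2.11, adjusted p = 2.98e-05 in Active). The number lower in UVB than in Active became 1 without UVB replicate 3. The GDNF co-receptor gene Gfra1 was likewise higher in UVB than in Quiescent (4.51, adjusted p = 0.000262).

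**Figure D5:**
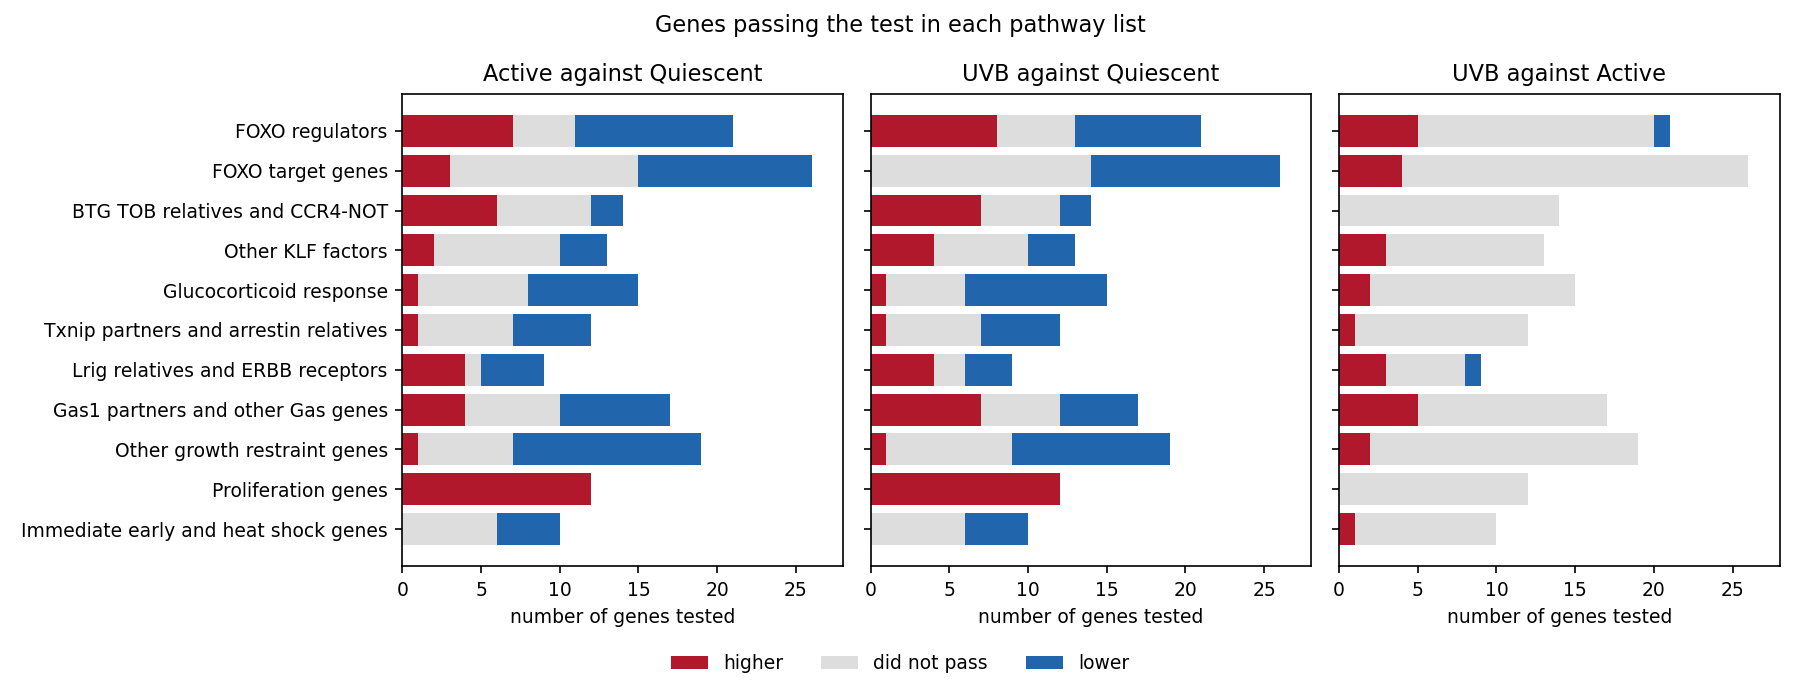
Number of tested genes of each list that were higher, did not pass or were lower at an adjusted p under 0.05 in each comparison, stacked as bars from 0, with TMM scaling. All 12 proliferation genes are higher in both comparisons with Quiescent, and 0 of the 14 relatives and partners of BTG1 and TOB1 pass in UVB against Active.

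The genes whose levels ran most like each member over the 9 libraries were found by the root mean square difference of centred log2 CPM, over 10926 genes, and are given as a description of these libraries, which share 3 groups. Txnip ran closest to Tsc22d3, a glucocorticoid-induced leucine zipper gene, at 0.22, and to Fbxo32, a muscle atrophy ubiquitin ligase gene and FOXO target, at 0.23. Lrig1 ran closest to Lynx1 (0.17) and Dock4 (0.19), Gas1 to Tspan18 (0.29) and Cdh13 (0.29), and Klf9 to Sgtb (0.20) and Fstl3 (0.23). Ccng2 ran closest to Tmem120b (0.11) and Arl6ip5 (0.12), Btg1 to Zfand5 (0.17) and Dhdh (0.20), and Tob1 to the apoptosis gene Bbc3 (0.15) and Rassf1 (0.17). Foxo1 ran closest to Dopey2 (0.12) and Dlc1 (0.15), Foxo3 to Zcchc2 (0.09) and Helb (0.10), and Foxo4 to Agpat3 (0.12) and Srp14 (0.13). Among the members, Ccng2 and Klf9 were the closest pair, at 0.32, followed by Foxo3 with Tob1 and Foxo4 with Tob1, both at 0.34.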

How the data were processed

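RNA was measured in 9 libraries, 3 in each group, grouped by the labels. Per the labels' protocols, poly(A) RNA was made into libraries using a kit that keeps the strand. Per the submitters' processing notes the tools were cutadapt 1.8, TopHat2 2.0.13, Cuffdiff 2.2.1 on the build mm10; no source used here states the annotation or the strand setting. Without the strand setting, fragments of genes overlapping on opposite strands cannot be told apart.

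The deposited file is laid out like Cuffdiff's per-replicate output, per the file headers. In it the authors give estimated counts of fragments for each gene and library, not yet scaled between libraries; 1.08% of 210249 values were not whole to within 1e-06, 0 of them in the 10 members, and all were rounded. The authors' FPKM values, fragments per kilobase of transcript after their own scaling for depth, were used for levels between genes. Cuffdiff marked 18 values in 7 genes as failed, 0 of them in the members.

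The counts of all 9 libraries were fitted together, 1 mean per group, by edgeR 4.0.16 (R 4.3.3) with TMM factors and 6 residual degrees of freedom, and tested two-sided with its quasi-likelihood F test. Genes with few fragments (8283 of 23361) were dropped by filterByExpr, and Benjamini-Hochberg adjustment ran over the remaining 15078, with a threshold of 0.05. Levels are CPM on the TMM-scaled library total. The biological coefficient of variation was 0.28, and replicate libraries differed beyond counting error (chi-square per degree of freedom 25.6 to 120.2). Members and lists were chosen with earlier results of these data known. In each comparison a list gives up to 2 genes per direction with the smallest adjusted p, or the most abundant where none passed, and each member its 2 most like genes; predicted genes were left out, and the text names a part of these. Alternatives were other scalings, DESeq2 1.42.0, limma 3.58.1 on log2(FPKM + 1) and on log2(FPKM + 0.1), testing all genes without a filter, a stricter filter of 50 counts in 3 libraries, the 6 libraries compared alone, the replicate number as a block, and leaving out each library.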

Additional observations from a re-analysis of the deposited data

How the results depend on the processing

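Of the members' values under the alternatives, 506 kept their direction and their side of the threshold. In the same direction, 30 lost a call and 8 gained one, and 26 turned in direction. Scaling by library totals alone changed both comparisons with Quiescent: in Active against Quiescent 8651 genes were higher and 2206 lower, in place of 4390 and 4396, and in UVB against Quiescent 8746 and 1246, in place of 3895 and 3498. Under that scaling Foxo3 turned to 0.75 in Active, and Foxo1, Foxo4 and Tob1 turned to 0.61, 0.65 and 0.63 in UVB, each against Quiescent. These turned values also gained a call as higher, with edgeR adjusted p = 0.00419, 0.0187, 0.00155 and 0.0419 in that order. Foxo3 in Active against Quiescent, at -0.00, also turned to 0.0064 with upper quartile factors, 0.023 with no filter, 0.0095 with the 6 libraries compared and 0.00042 with the replicate block, and Tob1, at 0.02, to -0.0097 with the stricter filter. Leaving out 1 library gave ranges of -0.11 to 0.14 for Foxo3 and -0.15 to 0.19 for Tob1 in Active against Quiescent, -0.34 to 0.087 for Tob1 in UVB against Quiescent, and -0.34 to 0.22 for Btg1, -0.36 to 0.060 for Tob1 and -0.27 to 0.76 for Txnip in UVB against Active. In UVB against Active the number of genes higher ranged from 999 to 2548 and lower from 453 to 1678 when 1 library was left out: 1395 and 543 without UVB replicate 1, 1215 and 591 without Active replicate 1, and 999 and 453 without Active replicate 2. Where a group was left with 2 libraries, the spread was still pooled over the rest. Without 1 library, the number of members lower ranged from 5 to 7 in Active and from 2 to 5 in UVB, each against Quiescent; with all libraries it was 4 in Active and 2 in UVB with library totals alone, 4 in UVB with the 6 libraries compared, and 6 in UVB with DESeq2's size factors, DESeq2 and both limma fits. Without 1 library, the share of all genes lower ranged from 23.9% to 29.3% in Active and from 17.6% to 24.3% in UVB. With library totals alone it was 14.6% in Active and 8.26% in UVB. In UVB it was 20.6% with the 6 libraries compared, and 24.5% to 26.4% under the settings with 6 members lower. The causes were not tested, beyond the smaller number of libraries.

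No clear pairing by replicate number was seen. Deviations from group means correlated at -0.171 to 0.231 across genes for the same number and at -0.209 to 0.26 for different numbers. Of the 9 libraries, 4 correlated best with their own number. Deviations of 3 libraries from their own mean depend on each other, so these values cannot exclude a pairing. With the replicate block 4135 genes were higher and 4088 lower in Active against Quiescent, 3580 and 3229 in UVB against Quiescent, and 1826 and 1004 in UVB against Active. Among the members the block ended the calls of Gas1 in UVB against Quiescent (adjusted p = 0.05) and Foxo1 in UVB against Active (0.0591), brought Txnip in UVB against Quiescent past the threshold (0.0317), and changed no other call.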

Other observations

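Libraries of 1 group differed in several members at once. In UVB, 7 of the 10 members were lowest in replicate 2, which had the highest summed proliferation genes (2743 CPM) and the lowest summed fibroblast markers (22170 CPM) of the group. In the same group 5 of the 10 were highest in replicate 3, which had the lowest proliferation sum (995 CPM) and the highest fibroblast sum (34760 CPM). In Active, 7 members were lowest in replicate 2, where the proliferation sum was highest. Replicate 3 of Active had the lowest proliferation sum, and 8 members were highest there. For the fibroblast sum in Active, 0 members were highest where it was highest and 3 were lowest where it was lowest. In Quiescent 3 members were lowest where the proliferation sum was highest, and 3 were highest where it was lowest. Also in Quiescent, 4 members were highest where the fibroblast sum was highest, and 1 was lowest where it was lowest. The immediate early and heat shock sum was lowest in replicate 2 of UVB (3020 CPM) and of Active (2434 CPM). It was highest in replicate 1 of UVB (6754 CPM) and replicate 3 of Active (7609 CPM). Melanocyte, T cell, mast cell and Schwann cell sums were also lowest in replicate 2 of UVB and highest in replicate 3. Endothelial and smooth muscle sums were lowest in replicate 1 of UVB. The share of all genes with these extremes was not counted, so the counts do not set the members apart from other genes. Groups of 3 libraries are too small to relate these measures, and no relation was tested.

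Other marker lists also differed between the groups. The 4 mast cell markers summed to 42.5 to 85.3 CPM in UVB, 3.8 to 8.1 CPM in Active and 2.1 to 6.9 CPM in Quiescent, with Fcer1a at 0 in Quiescent. The T cell list was mostly Thy1, which fibroblasts also express and which averaged 261 CPM in UVB, 23.1 CPM in Active and 428 CPM in Quiescent. Its 3 CD3 genes were higher in UVB than in Quiescent (edgeR), and Cd3g averaged 5.17 CPM in UVB, 0.716 CPM in Active and 0.184 CPM in Quiescent. Smooth muscle markers summed to 102 to 231 CPM in UVB, 73 to 117 CPM in Active and 694 to 955 CPM in Quiescent. Schwann cell markers summed to 484 to 685 CPM in UVB, 352 to 581 CPM in Active and 51 to 90 CPM in Quiescent.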
